A study of Mus musculus with 2 samples.

Results

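Myb binding at 10 genes that define megakaryocytes and platelets was examined in WT lineage-negative (Lin-) bone marrow cells. The genes were Itga2b, Itgb3, Gp1ba, Gp1bb, Gp9, Gp6, Pf4, Ppbp, Vwf and Treml1. A Myb peak was counted for a gene when its summit lay in the gene body or within 30 kb of it in the GENCODE vM21 annotation of mm10. This rule gave 39 of the 25793 peaks in the list, and 9 of the 10 genes had at least 1. The study compared 2 ChIP-Seq libraries of Lin- marrow from WT mice, 1 precipitated with an antibody against Myb and 1 with nonspecific rabbit IgG, and its peaks were called in the first against the second. Lin- cells had a purity above 80%. The labels give the genotype as WT. In the study's methods, mice were of C57BL/6 background, both sexes were used, and WT stood for Ep300 fl/fl animals without Cre that were injected as young adults with poly(I:C), a double-stranded RNA that induces interferon and switches on Mx1-Cre in the mice that carry it. Whether this held for the mice behind these libraries, and their age at harvest, their sex and the number pooled, are not given in the sources used here. There was no replicate library, so all values describe this 1 Myb library. A peak list holds no RNA levels, so the cell type could not be checked against its markers, and a peak in this mixed fraction cannot be assigned to megakaryocyte progenitors or to any other cell in it.

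Megakaryocytes arise from hematopoietic stem and progenitor cells (HSPCs) and shed platelets, which carry adhesion receptors on their surface and store clotting proteins and chemokines in α-granules. Platelet genes are activated in this lineage by GATA1 with its cofactor FOG1 and by the ETS factor FLI1, RUNX1, TAL1 and NFE2. Myb is required for definitive hematopoiesis, and mice with reduced Myb activity are known for raised megakaryocyte and platelet numbers. The 10 genes are thus markers of a cell type that increases when Myb activity falls.

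The reference sequence under the summits nearest to these genes is shown for those that the values below turn on. Each line is the 101 bp centered on a summit, read 5′ to 3′ on the plus strand of GRCm38 (mm10), and none of these windows holds a base annotated as UTR. Capitals mark matches on either strand to the Myb consensus (CAACTG or CAACGG or TAACTG or TAACGG) or to the GATA consensus (AGATAA or AGATAG or TGATAA or TGATAG). Itga2b lies on the minus strand and the other genes shown on the plus strand.
Itga2b upstream, chr11:102470148-102470248: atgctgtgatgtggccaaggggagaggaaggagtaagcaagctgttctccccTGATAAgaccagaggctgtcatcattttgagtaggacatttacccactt
Itgb3 upstream, chr11:104607580-104607680: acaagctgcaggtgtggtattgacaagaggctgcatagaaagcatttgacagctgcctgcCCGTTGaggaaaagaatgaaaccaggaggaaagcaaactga
Itgb3 intron, chr11:104609294-104609394: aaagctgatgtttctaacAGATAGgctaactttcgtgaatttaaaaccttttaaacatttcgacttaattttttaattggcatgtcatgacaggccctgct
Gp9 upstream, chr6:87776051-87776151: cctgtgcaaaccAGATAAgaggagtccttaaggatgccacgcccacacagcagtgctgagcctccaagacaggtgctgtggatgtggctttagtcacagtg
Gp9 promoter, chr6:87777504-87777604: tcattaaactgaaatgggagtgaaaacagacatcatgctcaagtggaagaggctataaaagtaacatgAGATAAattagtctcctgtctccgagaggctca
Pf4 promoter, chr5:90772214-90772314: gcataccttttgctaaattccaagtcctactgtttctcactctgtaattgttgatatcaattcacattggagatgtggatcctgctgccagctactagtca
Vwf intron, chr6:125572504-125572604: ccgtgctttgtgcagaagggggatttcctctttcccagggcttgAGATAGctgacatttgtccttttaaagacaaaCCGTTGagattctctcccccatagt

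The 39 peaks were of ordinary strength for this list. Fold enrichment is the scaled Myb pileup at a summit plus 1, divided by the local IgG background plus 1, so it is lower than the plain ratio, most of all where the background is low. It ranged from 2.37 to 12.4 with a median of 4.48 (95% interval, 3.92 to 5.56), against a median of 4.51 over all peaks. Fold enrichment was in the upper 25% of all peaks for 11 of the 39 and in the upper 10% for 2. The reads covering each summit, recovered from the deposited fold enrichment and p-value, numbered 10 to 49 with a median of 21, and 15 of the 39 summits had fewer than 20. Over all peaks in the list the median was 18 reads, with quartiles of 14 and 24. Intervals on single peaks below are exact Poisson 95% intervals of these reads, carried to the fold enrichment with the IgG background held fixed, and they cover counting error only. In 4 of the 39 peaks the deposited q-value was above 0.05. It was at most 0.05 in the other 35, and in 23926 of all 25793 peaks.

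Many of these peaks were closer to the start site of a neighboring gene. The nearest protein-coding start site was that of a member for 19 of the 39 peaks, or 48.7% (exact 95% interval, 32.4% to 65.2%), and that of another gene for the other 20. Of those 20, 13 lay within 3 kb of an annotated start site. Counted over all annotated start sites, not only protein-coding ones, 41.0% (25.6% to 57.9%) of the 39 peaks were nearest to a member. Over all 39, 26 summits, or 66.7% (49.8% to 80.9%), were within 3 kb of a start site of any gene, against 57.6% of all peaks. The median fold enrichment was 5.05 (3.90 to 6.97) for the 19 peaks nearest to a member and 4.21 (3.52 to 5.26) for the other 20, and these intervals overlapped.

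**Figure D1:**
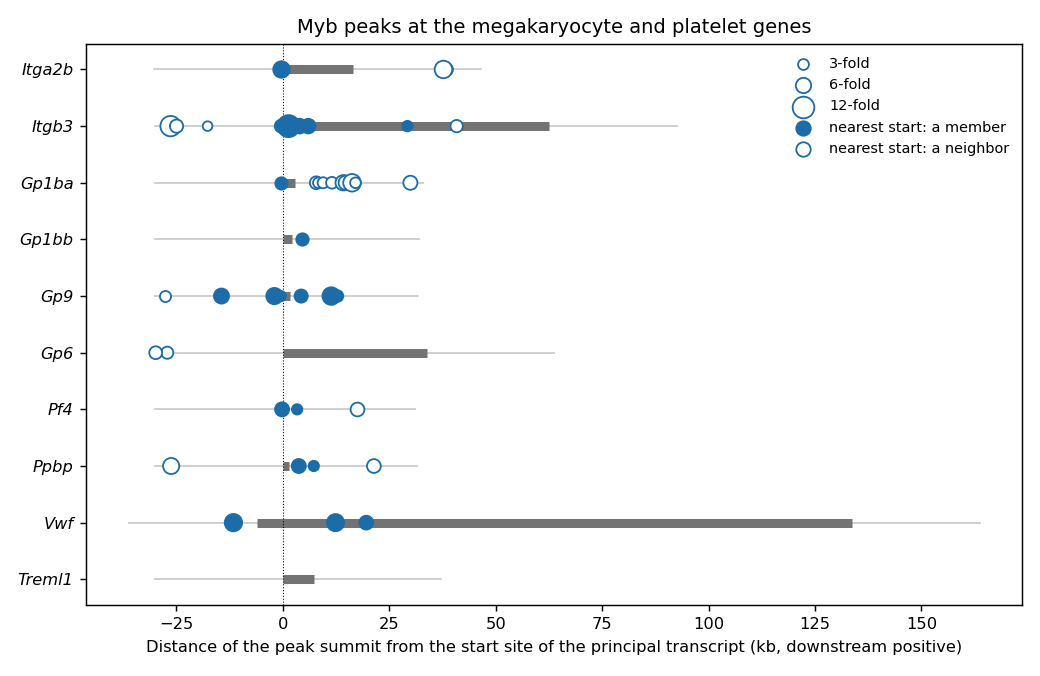
Position of each Myb peak summit along the 10 genes, in kb from the start site of the principal transcript and with downstream to the right. Thick bars are gene bodies, thin lines add 30 kb on each side, the area of a circle is proportional to fold enrichment, and filled circles are the peaks whose nearest protein-coding start site is that of a member. Itgb3, Gp1ba and Gp9 hold most of the peaks, Treml1 has none, and most peaks in the Gp1ba window are open circles downstream of the gene.

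As a background, 62.8% of the 21938 protein-coding genes outside the mitochondrial genome had a summit in the body or within 30 kb. The 9 of 10 members amount to 90.0% (55.5% to 99.7%), an interval that includes this background. A peak within 3 kb of one of their own start sites was found at 6 of the 10, or 60.0% (26.2% to 87.8%), against 39.9% of protein-coding genes, which is also inside the interval. Those 6 were Itga2b, Itgb3, Gp1ba, Gp9, Pf4 and Vwf. With 10 genes, neither share could be told apart from the background. The windows were also crowded, with a median of 3 other protein-coding genes in the window of a member and 2 in that of a protein-coding gene in general.

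Itga2b and Itgb3 encode the integrin αIIb and β3 chains, which together form the platelet receptor for fibrinogen. Itga2b (chromosome 11, 102453297 to 102470122, minus strand) had 3 peaks. One lay at its promoter, from 102469932 to 102470560, with its summit 76 bp upstream of the outermost annotated start site and 315 bp upstream of the start of the principal transcript. Its fold enrichment was 6.97 (4.95 to 9.55) on 36 reads, and 15.5% of all peaks were at least as strong. A GATA match, TGATAA, began 2 bp from the summit, and an ETS match, AGGAAG, lay 26 bp to the other side. There was no match to the Myb consensus in this window. The other 2 peaks, with fold enrichments of 4.22 and 7.90, lay 21866 and 21142 bp past the end of the gene, at Grn, which encodes the growth factor progranulin. The interval of the stronger of these, 5.69 to 10.7, overlapped that of the promoter peak.

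Itgb3 (chromosome 11, 104608000 to 104670476, plus strand) had 9 peaks and the strongest one of the whole set. It lay in intron 1, from 104608857 to 104610127, with the summit 1344 bp downstream of the start site. Its fold enrichment was 12.4 (9.24 to 16.3) on 49 reads (36.3 to 64.8), and 1.99% of all peaks in the list were at least as strong. The window around this summit held a GATA match, AGATAG, and no Myb consensus. A weaker peak 370 bp upstream of the start site, with a fold enrichment of 4.29 (2.75 to 6.43), held a Myb match, CAACGG on the minus strand, 10 bp from its summit. The intervals of these neighboring peaks did not overlap, and the stronger was the intronic one without the consensus.

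Of the remaining Itgb3 peaks, 2 were also in intron 1, at 3954 and 5976 bp from the start site, with fold enrichments of 5.56 and 5.46. Intron 5 held a peak with a fold enrichment of 2.82, 119 bp upstream of the start of a noncoding transcript. Intron 10 held one with 3.92 and a Myb match, TAACTG, 5 bp from the summit. This intron 10 peak also had an NFE2 and AP-1 match, TGAGTCA, 12 bp from the summit. Its nearest protein-coding start site was that of Gm11639, 36877 bp away. The last 3 lay upstream, inside the myosin light chain gene Myl4. One of them had the second highest fold enrichment of the set, 10.6 (7.66 to 14.3) on 40 reads, and its summit was 402 bp from an annotated Myl4 start site and 26363 bp from that of Itgb3. It carried a Myb match, TAACGG on the minus strand, 24 bp from the summit. The others had fold enrichments of 4.48 and 2.37, and the q-value of the last was above 0.05. Of all protein-coding genes, 4.89% had at least 9 peaks by the same rule, and so did 4.28% of the 5301 genes with 2 other protein-coding genes in the window, as Itgb3 has. Neither share was matched for the length of the window, which was 122 kb for Itgb3, and 5 of its 9 peaks lay in the gene body.

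Gp1ba, Gp1bb and Gp9 encode chains of the platelet receptor for von Willebrand factor, and their peak numbers differed widely. Gp1ba, on chromosome 11 from 70639122 to 70642036, had 10 peaks, the most of any member, yet 1 of the 10 was nearest to Gp1ba itself. That peak lay 367 bp upstream of the start site, with a fold enrichment of 3.90 (2.45 to 5.96) on 19 reads, below the median of all peaks. The other 9 were downstream, at Slc25a11, which encodes a mitochondrial carrier, at Rnf167, at Pfn1, which encodes the actin-binding protein profilin, and at Eno3 and Spag7. The strongest, with a fold enrichment of 7.90 (5.53 to 11.0) on 33 reads, was 732 bp from the start site of Pfn1. The window of Gp1ba held 9 other protein-coding genes, and among the 103 genes with as many, 21.4% had at least 10 peaks. None of the 10 summits had a Myb consensus match within 50 bp, which only 16.7% of all peaks have.

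Gp9, on chromosome 6 from 87778072 to 87779768, had 7 peaks, and for 6 of them the nearest start of a protein-coding transcript was that of Gp9. A promoter peak 518 bp upstream of the start site had a fold enrichment of 2.82 (1.72 to 4.39) on 17 reads. A stronger one, with 6.79 (4.78 to 9.39) on 34 reads, lay 1971 bp upstream, 42 bp from the start of the noncoding gene Gm43904. The interval of this peak began above the upper end of the other. Both windows had the GATA match AGATAA. Another upstream peak, 14407 bp from the start site, had a fold enrichment of 5.80 and the GATA match TGATAA, in a run of TAA repeats.

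Downstream of Gp9, a peak at 4309 bp had a fold enrichment of 4.44, and peaks at 11371 and 12838 bp had 7.90 (5.47 to 11.1) and 3.48. The last pair was inside Rab43, which encodes a small GTPase, 632 and 835 bp from annotated Rab43 start sites. The farthest peak, 27708 bp upstream and inside Efcc1, had 10 reads and a q-value above 0.05. At least 7 peaks were found at 9.42% of protein-coding genes, and at 9.62% of the 3304 genes with 3 other genes in the window, as Gp9 has. As at Gp1ba, no Gp9 summit had a Myb match within 50 bp, against 16.7% of all peaks.

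Gp1bb, on chromosome 16 from 18620317 to 18622403, had 1 peak. It lay downstream, 2535 bp past the end of the gene, with a fold enrichment of 3.92 (2.30 to 6.36) on 14 reads, and none of the 7 motifs searched was found within 50 bp. No peak was listed at the promoter of Gp1bb. Gp6, which encodes the platelet receptor for collagen and lies on chromosome 7 from 4363965 to 4397744, also had no promoter peak. Its 2 peaks were 27144 and 29859 bp upstream, inside the retinol dehydrogenase gene Rdh13, with fold enrichments of 3.77 and 4.20. The Gp6 gene and its nearer flanks held none.

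The α-granule chemokine genes Pf4 and Ppbp are neighbors on chromosome 5 and shared 3 of their peaks. Pf4, which encodes platelet factor 4 and lies from 90772435 to 90773383, had a promoter peak 171 bp upstream of the start site. The fold enrichment there was 5.05 (3.40 to 7.24) on 27 reads, and none of the 7 motifs searched was present. A second peak, 3360 bp downstream of the start site, past the end of the gene and 2904 bp from the start of a retained-intron Pf4 transcript, had 2.75 on 13 reads, a q-value above 0.05, 2 GATA matches, 1 RUNX match and 1 SP/KLF match. The last, with 4.87, was nearest to the chemokine gene Cxcl3 and had a Myb match, TAACTG on the minus strand, 4 bp from its summit.

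Ppbp, from 90768518 to 90770063, encodes pro-platelet basic protein and had no peak within 3 kb of its start site. Its nearest peak was the one at the Pf4 promoter, 3746 bp downstream of the Ppbp start. The only peak not shared with Pf4 was 26229 bp upstream, nearest to Cxcl5, with a fold enrichment of 6.65 (4.22 to 10.1) on 20 reads. The promoter signal of this pair was thus listed at Pf4 alone.

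Vwf, which encodes von Willebrand factor, is the longest of the 10 genes and spans 125546774 to 125686679 on chromosome 6. It had 3 peaks, all nearest to Vwf. One lay 5423 bp upstream of the outermost annotated start site, or 11597 bp upstream of the principal transcript, with a fold enrichment of 7.73 (5.14 to 11.2) on 25 reads and none of the 7 motifs. A second, in intron 3 and 12374 bp downstream of the principal start, had 7.51 (5.11 to 10.7) on 28 reads and a RUNX match. It was 929 bp upstream of the start of a noncoding Vwf transcript, which is why Vwf counted among the 6 genes with a promoter peak. No peak was listed within 3 kb of a protein-coding Vwf start. The remaining peak, in intron 6, had 4.91 (3.11 to 7.42) on 20 reads. Its window held a GATA match, AGATAG, 6 bp from the summit and a Myb match, CAACGG on the minus strand, 26 bp to the other side, and it was the only one of the 39 with both.

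Treml1, which encodes a receptor on the α-granule membrane and lies on chromosome 17 from 48359916 to 48367176, had no peak. The nearest summit listed was 38090 bp away, nearest to Nfya, with a fold enrichment of 2.97 on 11 reads. Of the 5301 protein-coding genes with 2 other genes in the window, as Treml1 has, 33.7% had none either. Because the list holds only called peaks, no upper limit can be set on Myb signal there.

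The limit of 30 kb cut through some of these loci. Just inside it was the farther Gp6 peak at 29859 bp. Just outside were the Cxcl5 peak, 30146 bp from Pf4, a peak 30992 bp from Gp9 and nearest to Rab43, with a fold enrichment of 5.06, and one 33128 bp from Gp1bb and nearest to Sept5, with 5.64. A peak 33882 bp upstream of Vwf, with 4.18, was nearest to Cd9, which encodes a platelet tetraspanin.

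**Figure D2:**
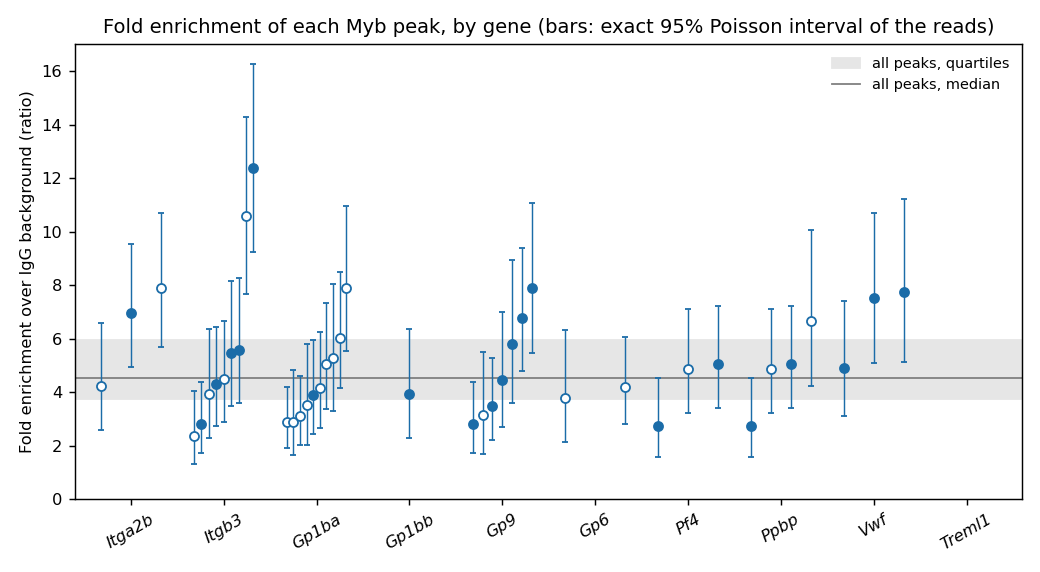
Fold enrichment over the IgG background of each Myb peak (vertical axis, ratio), by gene. Bars are exact 95% Poisson intervals of the reads at the summit, filled points are peaks whose nearest protein-coding start site is that of a member, and the gray band and line give the quartiles and the median, 4.51, of all peaks. The intronic Itgb3 peak at 12.4 and the peak at Myl4 at 10.6 stand highest, and most intervals cross the band. The 3 peaks shared by Pf4 and Ppbp are drawn at both genes.

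The share of these summits with the recognition sequence of Myb depended on how it was searched. The consensus lay within 50 bp of 5 of the 39 summits, or 12.8% (4.30% to 27.4%), against 16.7% of all peaks. Within 100 bp it lay at 33.3% (19.1% to 50.2%), against 30.0%. The shorter core AACNG lay within 50 bp of 71.8% (55.1% to 85.0%), against 54.3%, and this interval lies above the share over all peaks. Among the 19 peaks nearest to a member, 12 had this core, or 63.2% (38.4% to 83.7%), an interval that includes 54.3%. The 5 with the consensus within 50 bp were 3 Itgb3 peaks, the Cxcl3 peak in the Pf4 and Ppbp windows and the intron 6 peak of Vwf. Of the 19 peaks nearest to a member, 2 had the match, the one upstream of Itgb3 and the one in Vwf intron 6. The 2 strongest peaks of the set differed in the consensus, with a match at Myl4 and none in Itgb3 intron 1. Both had the shorter core AACNG within 50 bp, which at Myl4 is part of the consensus match and which 54.3% of all peaks have.

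Motifs of the factors known for platelet genes were searched in the same windows on both strands, each counted separately where motifs overlapped. A GATA match was found at 10 of the 39 summits, or 25.6% (13% to 42.1%), against 20.1% of all peaks. Among the 19 summits nearest to a member it was found at 7, or 36.8% (16.3% to 61.6%), and these were at Itga2b, Itgb3, Gp9, Pf4 and Vwf. The RUNX motif, TGTGGT or TGCGGT, was found at 8 of 39, or 20.5% (9.30% to 36.5%), against 12.2%. The ETS motif, AGGAAG or CGGAAG, was found at 7, or 17.9% (7.54% to 33.5%), against 20.4%. Each of these intervals includes the share over all peaks, so no difference was detectable with 39 peaks. The order against all peaks also turned with the setting, since GATA within 100 bp was at 33.3% of the 39 against 34.8%, and RUNX among the peaks with a −log10 q-value of 5 or more was at 10% against 13.6%.

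The E-box of TAL1, CAGATG or CAGCTG, was found at 5 of the 39, or 12.8%, against 14.2% of all peaks. The NFE2 and AP-1 motif, TGANTCA, was found at 2, or 5.13%, against 2.87%. The SP/KLF motif, GGGCGG, was found at 4, or 10.3%, against 7.15%. None of the 7 motifs was found at 10 of the 39 summits, or 25.6% (13% to 42.1%), and this share was 36.1% over all peaks. GATA and ETS matches occurred together at the Itga2b promoter and at no other of the 39, or 2.56%, against 3.64% of all peaks. The G+C content of the 101 bp windows had a median of 47.5% for the 19 summits nearest to a member and 53.5% for the other 20, against 48.5% over all peaks.

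**Figure D3:**
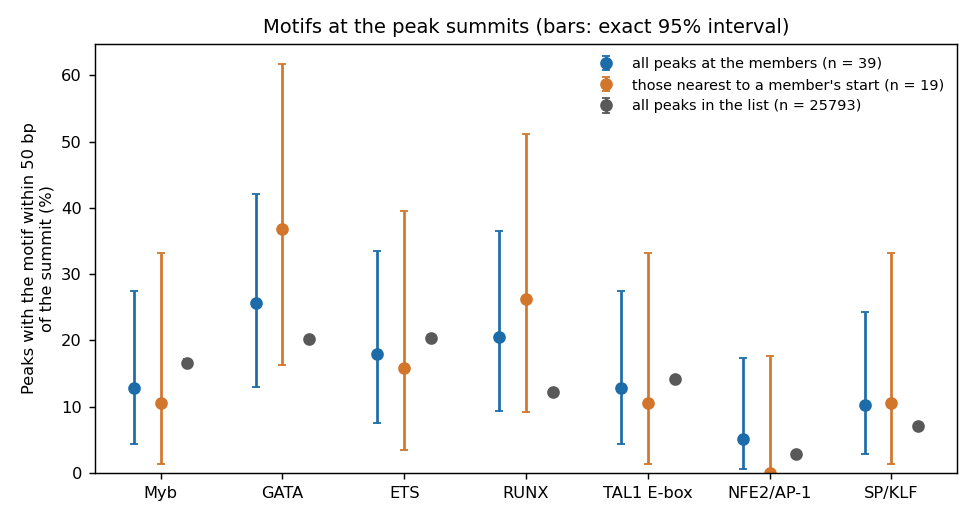
Share of summits with each motif within 50 bp (vertical axis, percent), for the 39 peaks at the members, for the 19 of them nearest to a member's start site and for all 25793 peaks. Bars are exact 95% intervals, which cover counting error over peaks only. The GATA and RUNX points of the members sit above and the Myb point below those of all peaks, and every interval of the 39 peaks includes the share over all peaks.

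To place these genes among others of the lineage, a wider list of 62 megakaryocyte and platelet genes was examined by role. A peak within 3 kb of a start site was found at 42 of the 62, or 67.7% (54.7% to 79.1%), against the 39.9% of protein-coding genes. A summit within 30 kb was found at 58, or 93.5% (84.3% to 98.2%), against 62.8% of protein-coding genes. The median was 4 peaks per gene, against 1 over all protein-coding genes. The 4 genes of the list without a summit, named after their values were seen, were Gng11, Itga2, P2ry1 and Thbs1. Tubb1, Clec1b, Mpig6b and Selp, also named after their values were seen, had a summit within 30 kb but no promoter peak. A share above that of protein-coding genes was not particular to this list, since 86.4% of the erythroid list below had a promoter peak. The wider list was put together with earlier results of these data known, and no test was made on it.

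Among the roles, the transcription factors of the lineage had the most peaks. All 11 of 11 had a promoter peak, and their median was 15 peaks within 30 kb, against 6 for genes of the cytoskeleton, granule formation and signaling, 3.5 for surface receptors and 1 for granule and secreted proteins. These medians were not matched for the length of the window or for the number of other genes in it. The strongest promoter peaks of the transcription factors were at Lyl1, with a fold enrichment of 17.5 on 88 reads, at Nfe2, with 17.0 on 94 reads, and at Tal1, with 9.68 on 49 reads. The weakest was at Gata1, with 4.47 on 13 reads, below the median of 4.51 over all peaks. Gata1 had 3 peaks within 30 kb. Surface receptor genes had a promoter peak in 9 of 18 cases, or 50% (26.0% to 74.0%). They were led by Pecam1, with 13.1 in a peak nearest to its neighbor Milr1, Itgb1, with 9.78, and P2ry12, an ADP receptor, with 9.58. Among genes of granule and secreted proteins a promoter peak was found at 5 of 9, or 55.6% (21.2% to 86.3%). These were led by Tgfb1, with 10.7, and the granule proteoglycan gene Srgn, with 10.1. The intervals of the surface receptors and of the granule and secreted proteins include the 39.9% of all protein-coding genes.

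For genes of the cytoskeleton, granule formation and signaling a promoter peak was found at 15 of 21, or 71.4% (47.8% to 88.7%), against 39.9% of protein-coding genes. These were led by Plek, which encodes pleckstrin, with 15.7, and Fermt3, which encodes kindlin-3, with 12.4. The highest fold enrichment within 3 kb of a start site among the 10 members, that of Itgb3, was close to that of Fermt3.

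Lists of other lineages were counted in the same way. Of 22 erythroid genes, 19 had a promoter peak, or 86.4% (65.1% to 97.1%), and all 22 had a summit within 30 kb, with a median of 3 peaks. Of 16 neutrophil granule genes, 5 had a promoter peak, or 31.3% (11.0% to 58.7%). A summit within 30 kb was found at 11 of them, or 68.8% (41.3% to 89.0%), with a median of 2. Over all protein-coding genes the shares were 39.9% and 62.8%, with a median of 1, and both neutrophil intervals include them. The share of the 10 members with a promoter peak, 60.0%, lay between those of the erythroid and neutrophil lists, and its interval overlapped both.

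**Figure D4:**
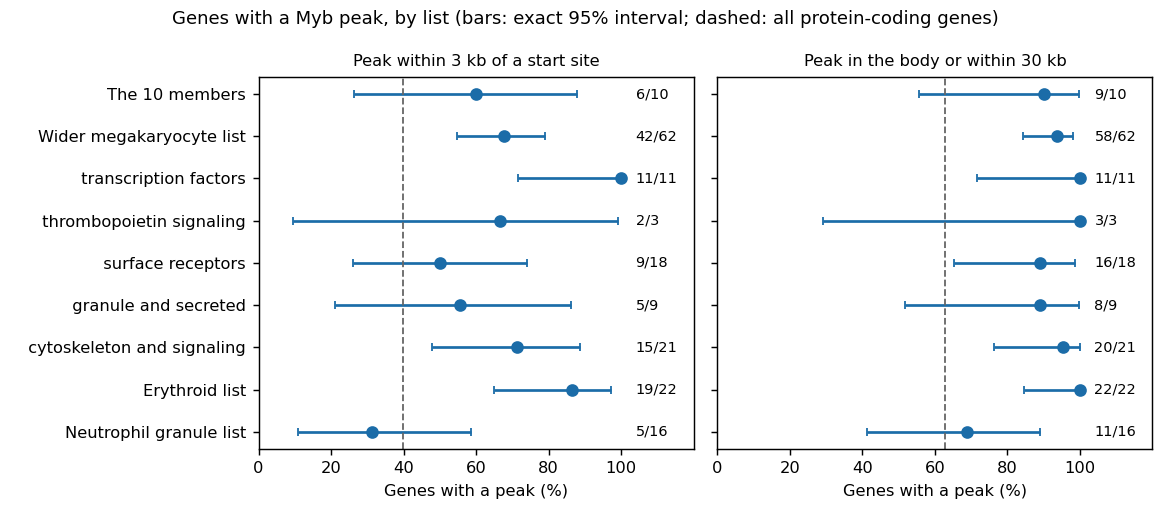
Share of genes with a Myb peak within 3 kb of a start site (left) and in the body or within 30 kb (right), in percent, for the 10 members, the wider megakaryocyte list and its roles, and lists of erythroid and neutrophil granule genes. Bars are exact 95% intervals, fractions give the counts, and dashed lines mark all protein-coding genes at 39.9% and 62.8%. All 11 transcription factor genes have a promoter peak, and the interval of the 10 members includes the dashed line in both panels.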

How the data were processed

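The deposited data were 1 peak list, of the Myb library. Per the labels and the study's methods, the authors trimmed adapters (cutadapt 1.15), mapped to mm10 (BWA 0.7.13), removed duplicates (Picard), filtered reads by mapping quality and blacklist, and called peaks with MACS2 2.1.1.20160309 against the IgG library, keeping calls shared by pseudo-replicates of this library. The deposited fold enrichment is a ratio, which the values show to be pileup plus 1 over IgG background plus 1. The p-value and q-value were deposited as −log10 values by the authors. In some peaks the deposited q-value exceeds 0.05, the limit stated for the calls. The deposited score was not used.

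Coordinates are 1-based, and all peaks lay within the GRCm38.p6 chromosomes. Reads at each summit were recovered as the whole number that, with a Myb pileup scale of 0.769, gave both deposited values, which held for 100% of rows within 0.001 of the −log10 p-value. No library totals were used here. Shares carry exact (Clopper-Pearson) 95% intervals and medians order-statistic intervals, for counting error only. No p-value was computed, since peaks are not replicates. Read recovery and motif search were tested on simulated data.

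The 10 genes, the lists and the motifs were chosen with earlier results of these data known. Named were the 10 genes, the nearest gene of each peak described, and the 10 genes of the wider list with the strongest promoter peaks. Other genes of the wider list were named after their values were seen. Of 23 erythroid genes listed, 22 matched the annotation. Alternatives covered the q-value, the distance, the promoter window, the start sites and the motif. Python 3.11.15, SciPy 1.17.1 and pandas 2.3.3 were used.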

Additional observations from a re-analysis of the deposited data

How the results depend on the processing

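No paired analysis was possible because there was 1 library per group and 1 peak list. When a −log10 q-value of 5 or more was required, which leaves fewer and stronger peaks by construction, 20 of the 39 peaks were left and their median fold enrichment was 6.34, against 6.23 over all peaks kept. Within 10 kb there were 22 peaks, of which 77.3% were nearest to a member, and within 100 kb there were 76, of which 25.0% were, as wider windows take in more neighbors. Counting protein-coding start sites alone, 46.2% of the 39 peaks were at a promoter, against 47.5% of all peaks. With a window of 100 bp around the summit, 33.3% had a Myb match, against 30.0% of all peaks. With the looser AACNG within 50 bp it was 71.8% (55.1% to 85.0%), against 54.3%. This was the only one of the Myb, GATA and RUNX alternatives whose interval excluded the share over all peaks. For the 19 peaks nearest to a member, the AACNG interval (38.4% to 83.7%) included 54.3%. Within 25 bp, GATA matches were at 12.8% and RUNX matches at 7.69%, against 10.8% and 6.20% of all peaks. GATA within 100 bp (33.3% against 34.8%) and RUNX with the q-value required (10% against 13.6%) turned below all peaks. Of the recomputed values for the set, 47 stayed within the interval or within 1.5 times the count, including GATA within 100 bp and RUNX with the q-value required. Another 11 did not. For peaks per single gene, 24 of 40 alternatives stayed within 1.5 times and 16 did not. These included Treml1, with 6 peaks within 100 kb, Gp6, with 0 within 10 kb, and Gp1bb, with 0 when that q-value was required. With 10 genes and 39 peaks, the intervals are wide.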
